A study of Mus musculus with 6 samples.

Results

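The genes described here were 41 named DNA repair genes, given as a list of gene symbols by function, by a rule that uses no measured value, out of 54525 gene rows in the RNA-seq count tables. They were measured in C2C12, an established mouse line of skeletal muscle myoblasts, as proliferating myoblasts at day 0 (D0) and as myotubes at day 5 of differentiation (D5), with 3 libraries of each. Both groups were wild type and had no other treatment. Myoblasts were kept in growth medium with fetal bovine serum and myotubes were formed in medium with a lower share of horse serum, so time, medium and cell state cannot be told apart. C2C12 is a single line, so the results describe that line in culture and not muscle in an animal.

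DNA is repaired by several pathways, each suited to a kind of damage. Homologous recombination copies the sister chromatid, which exists only after replication, and the Fanconi anemia pathway removes crosslinks between strands. Mismatch repair corrects replication errors, base excision repair removes small damaged bases and seals single-strand breaks, nucleotide excision repair cuts out bulky lesions, and non-homologous end joining rejoins broken ends without a template. The kinases ATM and ATR sense breaks and stalled forks and signal through CHK2 and CHK1. Muscle cells leave the cell cycle for good before they fuse into myotubes, so they keep their genome without replicating it.

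The D0 libraries held 36555048 to 40895840 counts on genes and the D5 libraries 25449759 to 25811300. The labels were checked against marker genes. The 6 myotube markers, among them Myog and Ckm, summed to 56.6 to 70.3 counts per 1000000 (CPM) at D0 and 11932 to 12763 at D5, whereas the 3 myoblast markers Myod1, Myf5 and Pax7 summed to 339 to 356 CPM at D0 and 154 to 160 at D5. A list of 17 proliferation genes fell from 3416 to 3450 CPM at D0 to 202 to 215 CPM at D5. Whether the D5 cells were postmitotic was measured by no other readout. The 4 endothelial markers summed to 3.31 to 3.59 CPM at D0 and 0.518 to 0.884 at D5, with Cdh5 at 3 counts or fewer in every library. The 4 leukocyte markers summed to 3.05 to 3.31 and 2.05 to 3.12 CPM, with Ptprc and Adgre1 at 3 counts or fewer, and all 4 adipocyte markers were at 3 counts or fewer in every library.

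All 41 repair genes were found and passed the filter on low counts. By edgeR's quasi-likelihood test with Benjamini-Hochberg adjustment over 16290 genes, 30 were lower in myotubes, against 40.8% of all genes tested, and 7 were higher, against 42.2%. The other 4 (Apex1, Polb, Ercc4 and Lig4) did not pass the threshold of 0.05. The changes were unequal in size: 18 repair genes were at least 2-fold lower, against 16.0% of all genes tested, and 0 were at least 2-fold higher, against 19.3%. Their median log2 fold change was −0.79, beside 0.00 over all genes tested. The myotube libraries were all under the lowest myoblast library in 30 genes (41.1% of all genes tested), all over the highest in 6 (42.2%), and mixed with the myoblast libraries in 5.

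**Figure D1:**
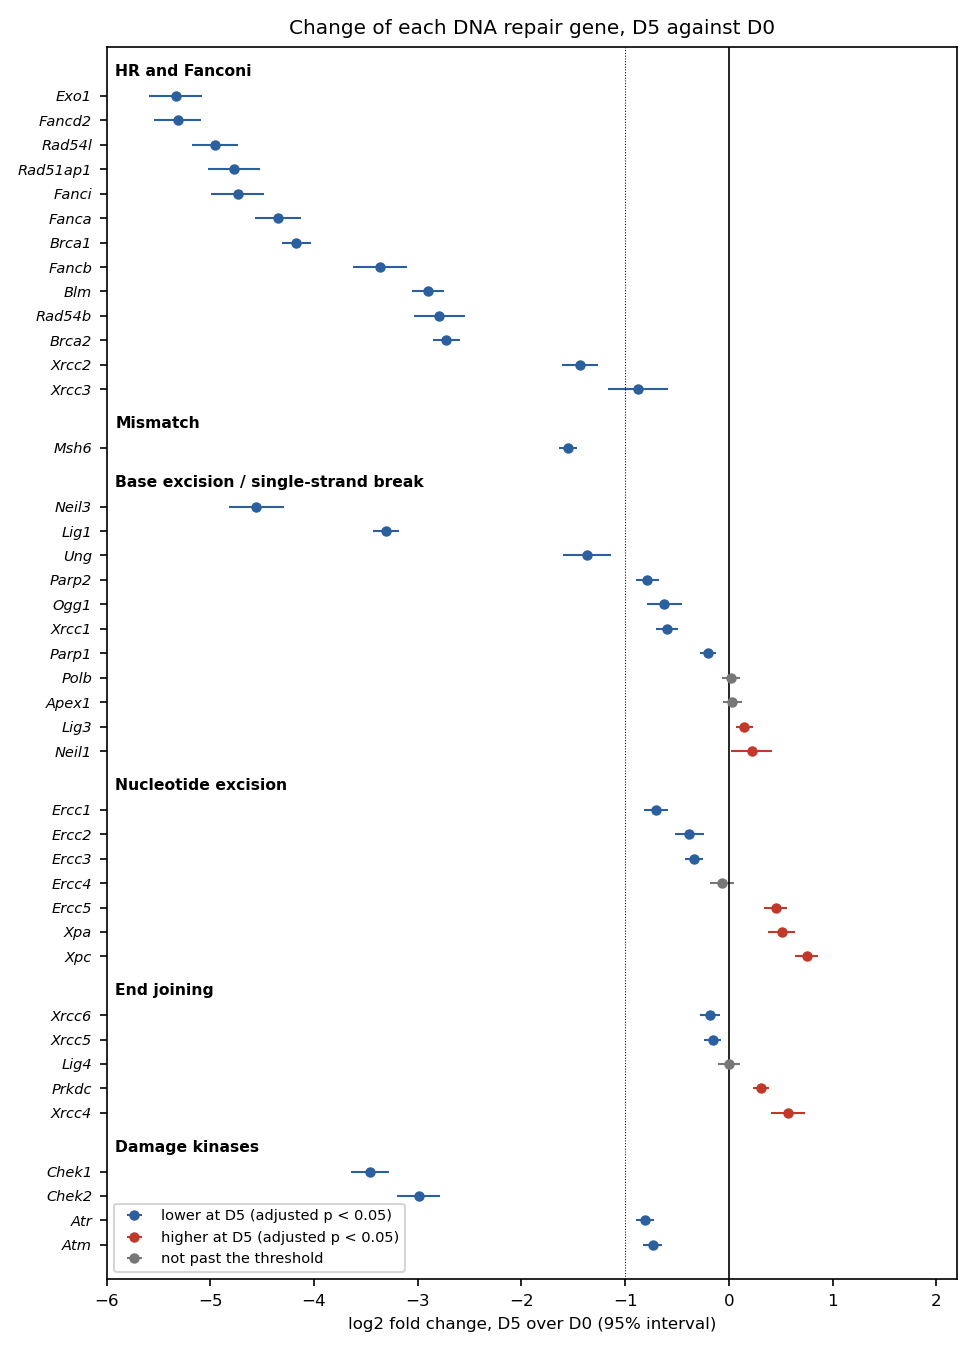
log2 fold change of each of the 41 repair genes in myotubes (D5) over myoblasts (D0), by repair group, with 95% intervals from edgeR. The dotted line marks a 2-fold decrease. All 13 genes of homologous recombination and the Fanconi pathway lie left of 0, whereas nucleotide excision and end joining genes lie within 1 log2 unit on both sides (none of these passed the threshold with spike-in scaling).

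The calls are given by repair group. The 13 genes of homologous recombination and the Fanconi pathway were all lower, with a median log2 fold change of −4.17. The 4 genes listed as damage kinases and the single gene listed under mismatch repair were lower as well. Of the 11 base excision genes, 7 were lower and 2 higher, and of the 7 nucleotide excision genes 3 were lower and 3 higher. Of the 5 end joining genes, 2 were lower and 2 higher. Nucleotide excision and end joining were thus near the shares over all genes tested, 40.8% lower and 42.2% higher. With scaling to spike-in RNAs, described below, the nucleotide excision and end joining groups had 0 calls in either direction. As these are bulk libraries, fewer cells that express a gene and less RNA per cell cannot be told apart.

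Levels were compared between genes as transcripts per 1000000 (TPM), which divides counts by exon length. This length merges all annotated exons of a gene, so TPM is too low where the main transcript is much shorter. Values after ± are SD over 3 libraries for levels and ratios and SE for log2 fold changes. The summed level of the 13 homologous recombination and Fanconi genes was 152, 159 and 162 TPM in the D0 libraries and 15.3, 14.3 and 13.4 TPM in the D5 libraries, so that 9.10% of the D0 mean remained. This group made up 15.2% of the summed level of all 41 genes at D0 and 2.27% at D5. The kinases kept 28.8% of their D0 level (67.8 ± 2.94 and 19.5 ± 0.516 TPM, n = 3) and the base excision genes 70.1% (427 ± 13.3 and 300 ± 7.45 TPM). The share of base excision genes in the summed level of all 41 rose from 41.2% to 47.3%. Apex1 alone held 145 TPM of the base excision sum at D0 and 133 TPM at D5. Its reads may be mixed with those of an overlapping gene, as described below. None of the summed levels overlapped between the groups, and an exact two-sided permutation test gave p = 0.1 for each, the smallest value that 3 against 3 libraries allow.

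The summed levels of nucleotide excision (166 ± 3.37 and 144 ± 3.12 TPM) and end joining genes (159 ± 0.693 and 138 ± 7.74 TPM) each kept 86.4% of the D0 mean. These 2 decreases depended on the scale. With counts per exon length scaled by the TMM factors that edgeR uses, the D5 libraries held 94.995 to 97.6% of the D0 mean for nucleotide excision, and 92.9 to 100.2% for end joining, where the groups then overlapped. On that scale the kinases were at 31.4 to 32.7%, base excision genes at 76.5 to 81.2% and homologous recombination and Fanconi genes at 9.56 to 10.6% of the D0 mean. Without division by exon length, the TMM-scaled kinase counts were at 44.6 to 47.9%. The size of the kinase decrease thus depends on the weight that length gives each gene.

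**Figure D2:**
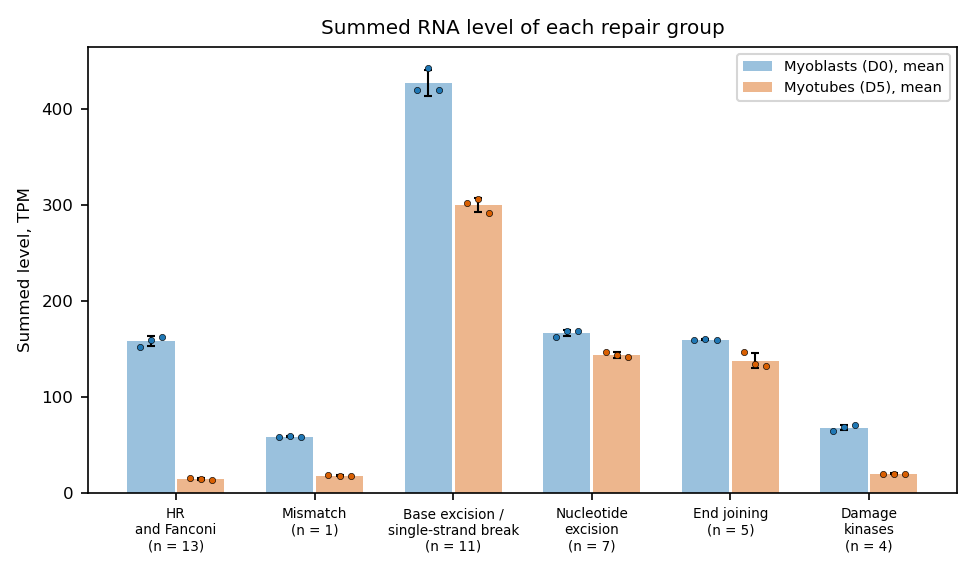
Summed level (TPM) of the genes in each repair group. Bars are means of 3 libraries from a zero baseline, error bars are SD, points are libraries, and n is the number of genes. The homologous recombination and Fanconi sum is 158 TPM at D0 and 14.4 TPM at D5, while base excision genes keep 300 of 427 TPM.

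Scaling by the ERCC spike-ins, RNAs added in the laboratory, gave another baseline. They took 0.726 to 0.859% of the counts at D0 but 1.20%, 0.720% and 2.09% in the D5 libraries, so the D5 libraries spread widely on this scale. The median log2 fold change over all genes was then −0.58. On this scale 22 repair genes were lower, against 23.0% of all genes tested, and 0 higher, against 11.1%. The 22 were all 13 homologous recombination and Fanconi genes, Msh6, the 4 kinases, Neil3, Lig1, Ung and Parp2. The calls of Ogg1, Parp1, Xrcc1, Ercc1, Ercc2, Ercc3, Xrcc5 and Xrcc6 were lost, as were the 7 rises, and Lig3, Neil1, Xpa, Ercc5 and Prkdc had negative log2 fold changes. Xpc was at 0.18 and Xrcc4 at 0.036, and neither passed the threshold. Relative to the median of all genes, Xpc was at 0.75, Xrcc4 at 0.61, Brca1 at −4.16 and Exo1 at −5.41. Taking off the median removes the shift common to all genes, so these values lie near the TMM-scaled fit (0.75, 0.57, −4.17 and −5.33) and are no separate support for a rise. Per exon length, the homologous recombination and Fanconi genes held 6.63%, 10.7% and 3.40% of the D0 mean in the 3 D5 libraries and the kinases 20.1%, 34.2% and 11.2%. The nucleotide excision genes held 60.3%, 102% and 33.9% and the end joining genes 62.8%, 100.2% and 33.1%, so 1 of the 3 D5 libraries was at the D0 level in both groups.

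Promoters of the repair genes were read from RefSeq (GRCm38.p6), from 250 bases before to 50 bases after each gene's start, and 33 of the 41 genes matched. The windows were searched on both strands for the words TTTGGCGC, TTTCCCGC, TTTCGCGC and TTTGCCGC, which E2F factors, regulators of S-phase genes, are known to bind. These words were in 5 of 33 repair genes (15.2%), compared with 2.61% of the 27025 genes in the promoter table. Of 14 matched genes that fell at least 2-fold, 4 held a word, as did 1 of 11 that fell by less and 0 of 8 that were not lower. By repair group it was 1 of 9 for homologous recombination and Fanconi, 1 of 10 for base excision and 0 of 5 for nucleotide excision. It was 1 of 4 for end joining, 1 of 4 for the kinases and 1 of 1 for mismatch. The 8 genes without a match included Exo1 and Fancd2, which fell most. These counts are small and were not tested. Only the exact words named above were searched, so a gene without them may still hold another form of an E2F site. The 5 windows with a word are shown. All 5 genes were lower at D5, from Lig1, which fell by 3.31 on the log2 scale, to Xrcc6, which fell by 0.18. Capitals mark the word in the printed 5′ to 3′ sequence of the gene's strand, where it may read as its reverse complement.
Brca2, chr5:150522371-150522670, plus strand: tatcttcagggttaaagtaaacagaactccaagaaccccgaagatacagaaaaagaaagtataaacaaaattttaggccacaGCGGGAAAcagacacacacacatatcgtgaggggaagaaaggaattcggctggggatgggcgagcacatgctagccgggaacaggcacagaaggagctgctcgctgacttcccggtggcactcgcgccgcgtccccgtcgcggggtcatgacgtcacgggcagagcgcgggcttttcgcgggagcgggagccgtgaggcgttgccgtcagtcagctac
Msh6, chr17:87974800-87975099, plus strand: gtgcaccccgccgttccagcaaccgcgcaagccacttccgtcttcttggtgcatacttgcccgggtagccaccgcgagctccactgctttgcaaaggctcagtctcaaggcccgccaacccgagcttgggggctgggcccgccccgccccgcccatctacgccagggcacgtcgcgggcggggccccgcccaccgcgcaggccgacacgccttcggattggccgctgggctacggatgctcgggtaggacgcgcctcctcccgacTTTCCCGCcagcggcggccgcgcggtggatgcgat
Lig1, chr7:13278576-13278875, plus strand: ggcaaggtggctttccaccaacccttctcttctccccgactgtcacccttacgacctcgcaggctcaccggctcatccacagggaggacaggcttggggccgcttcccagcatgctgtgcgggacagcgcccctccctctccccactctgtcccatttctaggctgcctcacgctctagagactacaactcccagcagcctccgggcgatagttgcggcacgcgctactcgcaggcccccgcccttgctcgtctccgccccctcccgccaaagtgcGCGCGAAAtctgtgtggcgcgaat
Chek2, chr5:110839733-110840032, plus strand: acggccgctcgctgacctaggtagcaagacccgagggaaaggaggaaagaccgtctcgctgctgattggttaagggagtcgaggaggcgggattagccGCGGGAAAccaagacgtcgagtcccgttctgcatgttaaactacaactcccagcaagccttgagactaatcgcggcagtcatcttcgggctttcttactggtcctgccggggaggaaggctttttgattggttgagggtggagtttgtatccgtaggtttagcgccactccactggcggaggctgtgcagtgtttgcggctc
Xrcc6, chr15:82016119-82016418, plus strand: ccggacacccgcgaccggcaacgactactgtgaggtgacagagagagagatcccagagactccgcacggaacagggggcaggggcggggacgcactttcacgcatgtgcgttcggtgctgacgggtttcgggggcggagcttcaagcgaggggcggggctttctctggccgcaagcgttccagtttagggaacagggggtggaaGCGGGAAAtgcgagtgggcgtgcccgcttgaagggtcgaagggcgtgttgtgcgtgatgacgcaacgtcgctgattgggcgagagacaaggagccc
The word began 168 bases before the start in Brca2, 152 before it in Chek2 and 46 before it in Xrcc6, and 15 bases after the start in Msh6 and 26 after it in Lig1. Brca2, Msh6, Chek2 and Xrcc6 carried TTTCCCGC and Lig1, in 1 of its 3 RefSeq promoters, TTTCGCGC. The words TTTGAA and TTCGAA, known as the cell cycle homology region, were in 4 of 33 repair genes (12.1%) and in 21.7% of all genes in the table. A match in these windows is a description of letters and not of binding.

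The largest decreases were in genes that act on broken or crosslinked chromosomes. Exo1, the exonuclease that resects DNA ends, was at 21.2, 21.2 and 21.3 CPM in D0 libraries and at 0.358, 0.609 and 0.603 CPM in D5 libraries, a log2 fold change of −5.33 ± 0.13 (SE, edgeR adjusted p = 2.88e-26). Fancd2, which is ubiquitinated with FANCI to start crosslink repair, was at 29.2, 32.6 and 29.8 CPM at D0 and 0.756, 0.649 and 0.884 CPM at D5 (log2 fold change −5.32 ± 0.11, adjusted p = 1.16e-27). Both genes kept close to 2.5% of their D0 level, and no D5 library came near a D0 library. Their D5 values rest on few reads, with 9 to 15 counts per library for Exo1 and 16 to 22 for Fancd2.

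Rad54l and Rad51ap1 encode proteins that help the recombinase filament invade a template. Rad54l was at 27.7, 28.3 and 27.9 CPM at D0 and 0.637, 0.852 and 1.21 CPM at D5 (log2 fold change −4.96 ± 0.11, adjusted p = 5.77e-27). Rad51ap1 was at 23.6, 23.8 and 23.4 CPM at D0 and 1.23, 0.852 and 0.482 CPM at D5 (log2 fold change −4.77 ± 0.12, adjusted p = 3.59e-25). The D0 libraries agreed closely, whereas the D5 libraries spread over a wider relative range on counts of 12 to 31 for both genes. Rad54b, the paralog of Rad54l, went from 11.2 ± 0.552 to 1.62 ± 0.250 CPM (log2 fold change −2.79 ± 0.12, adjusted p = 1.71e-19).

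Brca1 and Brca2, which promote end resection and load the recombinase, were both lower, to unequal extents. Brca1 was at 65.2, 62.7 and 68.7 CPM at D0 and 3.42, 3.86 and 3.62 CPM at D5 (log2 fold change −4.17 ± 0.07, adjusted p = 2.61e-30). Brca2, whose promoter with the E2F word is printed above, was at 45, 46.7 and 48.1 CPM at D0 and 6.97, 7.83 and 6.35 CPM at D5 (log2 fold change −2.73 ± 0.06, adjusted p = 3.56e-26). Brca1 thus kept 5.54% and Brca2 15.1% of the D0 level.

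The Fanconi genes Fanca and Fancb encode parts of the ligase complex that modifies FANCD2 and FANCI. Fanca fell from 23.0 ± 1.53 to 1.12 ± 0.166 CPM, Fancb from 11.9 ± 0.576 to 1.15 ± 0.217 CPM and Fanci from 17.6 ± 0.596 to 0.656 ± 0.0870 CPM. Their log2 fold changes were −4.35, −3.37 and −4.74. Blm, the helicase that dissolves recombination intermediates, fell from 33.2 ± 0.885 to 4.43 ± 0.613 CPM (log2 fold change −2.90 ± 0.07, adjusted p = 3.7e-25).

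Xrcc2 and Xrcc3, which encode paralogs of the recombinase, were the least reduced of the 13. Xrcc2 was at 13.6, 15.1 and 15.4 CPM at D0 and 5.81, 5.60 and 4.98 CPM at D5 (log2 fold change −1.43 ± 0.08, adjusted p = 8.08e-16). Xrcc3 was at 3.84, 4.0 and 3.82 CPM at D0 and 2.11, 2.31 and 1.93 CPM at D5 (log2 fold change −0.88 ± 0.14, adjusted p = 1.39e-06). Xrcc3 was the only gene of this group under a 2-fold decrease, and its groups still did not overlap. Per length, the group ranged from 4.89 TPM (Xrcc3) to 26.6 TPM (Brca1) in myoblasts and from 0.192 TPM (Exo1) to 3.25 TPM (Xrcc2) in myotubes, so Xrcc2 had the highest level of the group at D5.

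The 17 proliferation genes moved with this group. All were lower at D5, with log2 fold changes from −5.65 (Bub1, a spindle checkpoint kinase) to −2.77 (Mcm7, a subunit of the replicative helicase). Their part in the decrease of the repair genes was not tested.

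**Figure D3:**
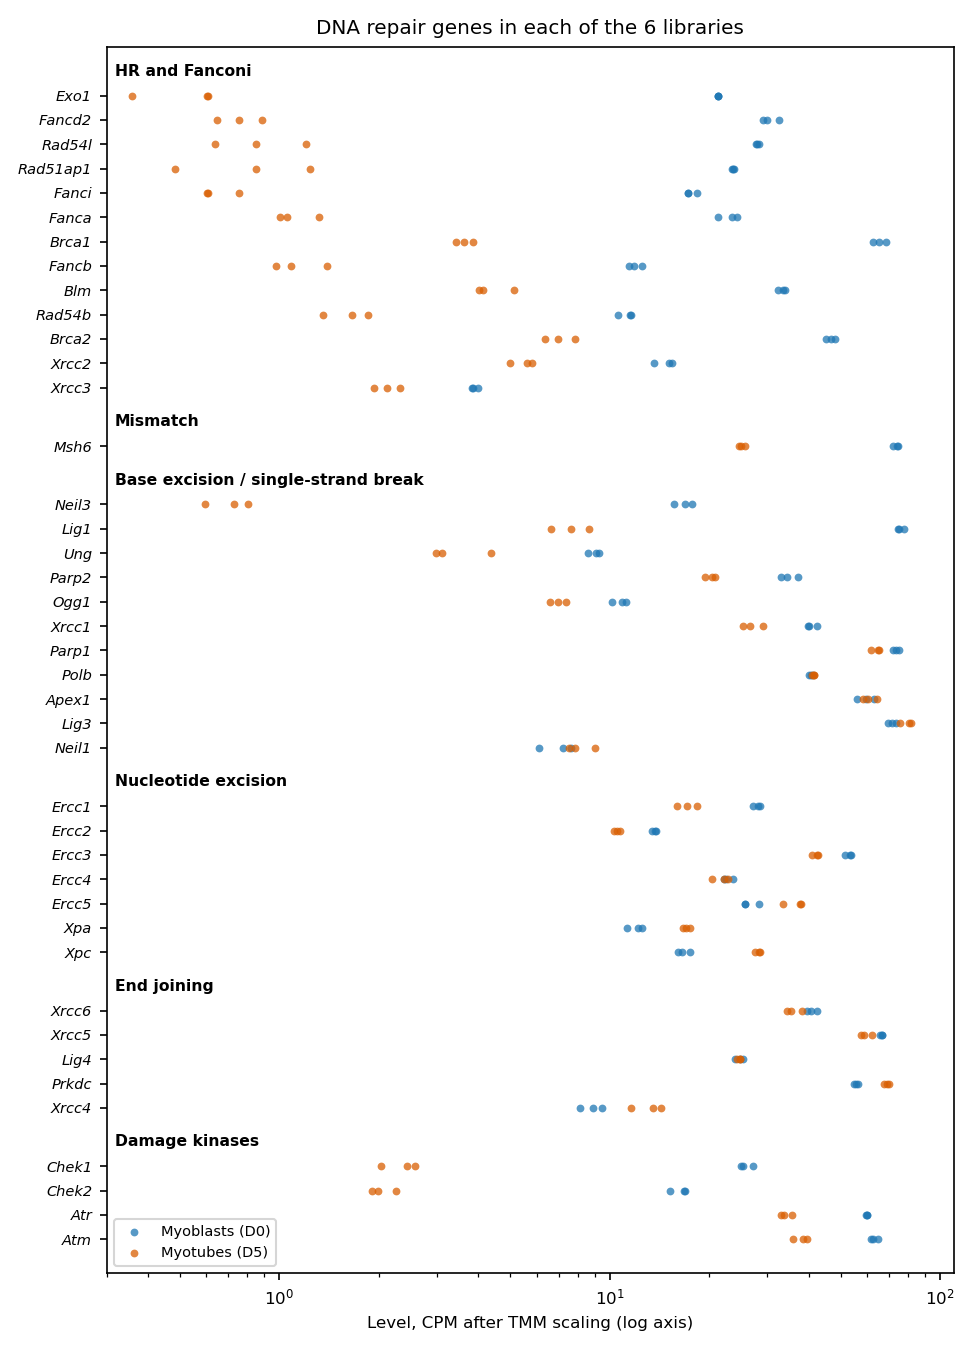
Level of each repair gene in every library, in CPM after TMM scaling on a log axis, with blue for myoblasts (D0) and orange for myotubes (D5). The D5 points of the homologous recombination and Fanconi genes are separated from the D0 points by a wide gap in all but Xrcc3 and Xrcc2, while the points of Apex1, Polb, Ercc4, Lig4 and Neil1 overlap.

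Msh6, a mismatch recognition subunit and the only gene of the 41 listed under mismatch repair, was at 74.0, 74.3 and 72.1 CPM at D0 and 25.6, 24.9 and 24.6 CPM at D5. It fell by 1.55 on the log2 scale (SE 0.04, adjusted p = 3.99e-24), and the libraries within a group were nearly level. It was still the tenth most abundant of the 41 in myotubes at 17.9 TPM.

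The base excision and single-strand break genes are given by step. Among the glycosylases, which remove the damaged base, Neil3 was at 15.6, 17.8 and 16.9 CPM at D0 and 0.597, 0.730 and 0.804 CPM at D5 (log2 fold change −4.56 ± 0.13, adjusted p = 4.23e-24). Ung, which removes uracil, was at 9.10, 9.30 and 8.59 CPM at D0 and 3.11, 4.38 and 2.97 CPM at D5 (log2 fold change −1.37 ± 0.11, adjusted p = 2.63e-12). Both were lower in every D5 library. Ogg1, which removes oxidised guanine, went from 10.7 ± 0.537 to 6.97 ± 0.408 CPM (log2 fold change −0.62 ± 0.08, adjusted p = 6.47e-08).

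Neil1, another glycosylase for oxidised bases, was at 7.21, 7.64 and 6.08 CPM at D0 and 7.52, 9.01 and 7.84 CPM at D5. The groups overlapped. Its log2 fold change of 0.22 ± 0.10 passed the threshold (adjusted p = 0.0405), but it did not pass without D0 replicate 1 (0.23, adjusted p = 0.0632), D0 replicate 3 (0.12, adjusted p = 0.279) or D5 replicate 2 (0.14, adjusted p = 0.225), nor with DESeq2 (adjusted p = 0.161), library totals (0.13, adjusted p = 0.196) or no filter on low counts (0.17, adjusted p = 0.122), and with spike-in scaling it was at −0.31 (adjusted p = 0.676). The call was thus kept in 5 of 12 alternatives. In TPM, Neil3 stood at 0.817 ± 0.108 times Neil1 in myoblasts and 0.0295 ± 0.00435 times Neil1 in myotubes.

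Apex1, the endonuclease that cuts abasic sites, had the highest level of the 41 genes on both days, 145 ± 8.42 TPM at D0 and 133 ± 5.97 TPM at D5, and its log2 fold change was 0.03 ± 0.05 (95% interval −0.06 to 0.13, adjusted p = 0.494). Polb, the polymerase that fills the gap, was at 41.2, 40.007 and 40.6 CPM at D0 and 41.4, 41.4 and 41 CPM at D5 (log2 fold change 0.02, 95% interval −0.07 to 0.11). Neither passed the threshold. With spike-in scaling the 95% intervals were wider, −1.52 to 0.51 for Apex1 and −1.56 to 0.48 for Polb, and did not leave out a 2-fold decrease. Of the Apex1 exon bases, 61.7% overlap Pip4p1 on the opposite strand, and strandedness of the counts was not given, so reads of the 2 genes may be mixed. Pip4p1 fell by 0.26 on the log2 scale (adjusted p = 1.08e-05).

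Of the break sensors, Parp1 fell by 0.20 on the log2 scale (73.6 ± 1.48 and 63.9 ± 1.99 CPM, adjusted p = 2.07e-05) and Parp2 by 0.79 (34.8 ± 2.09 and 20.2 ± 0.651 CPM, adjusted p = 4.03e-14). Xrcc1, the scaffold that gathers repair enzymes at a nick, fell by 0.59 (40.7 ± 1.42 and 27.0 ± 1.91 CPM, adjusted p = 7.1e-12). None of these 3 genes overlapped between the groups.

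The ligases of this pathway parted. Lig1, which also joins Okazaki fragments during replication and whose promoter with an E2F word is printed above, was at 74.6, 77.4 and 74.8 CPM at D0 and 6.65, 8.64 and 7.64 CPM at D5 (log2 fold change −3.31 ± 0.06, adjusted p = 5.13e-29). Lig3, the partner of XRCC1 and the ligase of mitochondria, was at 69.4, 73.4 and 71.5 CPM at D0 and 81.5, 80.5 and 75.8 CPM at D5 (log2 fold change 0.15 ± 0.04, adjusted p = 0.000905). Lig3 was above in every D5 library, with a mean at 111% of that at D0, and the call was lost when libraries were scaled by their totals alone (0.06, adjusted p = 0.128). Lig1 went from 1.81 ± 0.0252 times the TPM level of Lig3 to 0.165 ± 0.0229 times, so Lig3 became the more abundant ligase by 6.15 ± 0.914 times. Of the Lig3 exon bases, 25.1% overlap Rffl on the opposite strand, which fell from 9.47 to 7.29 CPM.

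Nucleotide excision genes moved in both directions. The damage recognition factor Xpc was at 16.1, 17.5 and 16.5 CPM at D0 and 28.5, 27.5 and 28.4 CPM at D5, the largest rise of the 41 genes (log2 fold change 0.75 ± 0.05, adjusted p = 1.07e-13). Xpa, which verifies the lesion, was at 12.5, 11.3 and 12.2 CPM at D0 and 17.4, 17.0 and 16.7 CPM at D5 (0.51 ± 0.07, adjusted p = 2.74e-08). Ercc5, the nuclease XPG that cuts 3′ of the lesion, was at 25.6, 28.3 and 25.7 CPM at D0 and 38.0, 37.5 and 33.4 CPM at D5 (0.45 ± 0.05, adjusted p = 6.93e-09). In all 3 genes the D5 libraries lay above the D0 libraries, although with spike-in scaling Xpa and Ercc5 were at −0.058 and −0.085 and Xpc at 0.18, and none passed the threshold.

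Ercc1, which forms the 5′ nuclease with ERCC4, fell from 27.9 ± 0.714 to 17.2 ± 1.15 CPM (log2 fold change −0.70 ± 0.06, adjusted p = 1.46e-12). Its partner Ercc4 was at 22.8 ± 0.730 and 21.8 ± 1.28 CPM and did not pass the threshold (−0.06, 95% interval −0.18 to 0.05, adjusted p = 0.297). Ercc1 accordingly went from 2.66 ± 0.0773 to 1.71 ± 0.165 times the TPM level of Ercc4.

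Ercc2 and Ercc3 encode the XPD and XPB helicases of TFIIH, which opens DNA in repair and in transcription. Ercc2 fell by 0.38 on the log2 scale and Ercc3 by 0.33 (adjusted p = 9.36e-06 and 2.38e-08), and the ratio of Ercc2 to Ercc3 in TPM was 0.176 ± 0.00122 at D0 and 0.170 ± 0.00718 at D5 (exact permutation p = 0.4). Of the Ercc2 exon bases, 42.4% overlap other genes on the opposite strand, the most abundant of which, Klc3, rose from 0.888 to 2.29 CPM.

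In the TMM-scaled fit the end joining genes stayed within 1.5-fold of their D0 level. The Ku subunits that cap broken ends fell slightly, Xrcc5 (Ku80) from 66.3 ± 0.365 to 59.4 ± 2.36 CPM and Xrcc6 (Ku70) from 40.9 ± 1.34 to 36 ± 2.03 CPM, with log2 fold changes of −0.16 and −0.18 (adjusted p = 0.000687 and 0.000969). With spike-in scaling they were at −0.72 and −0.74 and did not pass the threshold (adjusted p = 0.286 and 0.269). Their TPM ratio was 2.84 ± 0.0800 at D0 and 2.89 ± 0.0472 at D5 (exact permutation p = 0.5), with overlapping groups. Xrcc6 also carried an E2F word in the promoter printed above, although its decrease was among the smallest.

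Prkdc, the catalytic subunit of the kinase that Ku recruits, was at 56.2, 55.6 and 54.7 CPM at D0 and 69.9, 69.2 and 67.5 CPM at D5 (log2 fold change 0.31 ± 0.04, adjusted p = 1.39e-08). Xrcc4, the cofactor of the end joining ligase, was at 9.48, 8.90 and 8.12 CPM at D0 and 14.3, 13.5 and 11.6 CPM at D5 (0.57 ± 0.08, adjusted p = 2.45e-07). Both rose without overlap between the groups, but with spike-in scaling Prkdc was at −0.25 and Xrcc4 at 0.036, and neither passed the threshold. The ligase itself, Lig4, was at 25.2, 24.7 and 23.9 CPM at D0 and 24.3, 24.7 and 24.8 CPM at D5, with a log2 fold change of 0.00 (95% interval −0.10 to 0.11, adjusted p = 0.986). Lig4 went from 2.26 ± 0.114 to 1.53 ± 0.184 times the TPM level of Xrcc4.

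All 4 genes listed as damage kinases were lower, with larger log2 fold changes in the effector kinases than in the sensors. Prkdc, the kinase gene listed with end joining, was higher in the same fit (0.31). Chek1 was at 25.3, 24.9 and 27.2 CPM at D0 and 2.43, 2.03 and 2.57 CPM at D5 (log2 fold change −3.46 ± 0.09, adjusted p = 3.89e-25). Chek2 was at 15.2, 16.7 and 16.9 CPM at D0 and 1.91, 1.99 and 2.25 CPM at D5 (−2.99 ± 0.10, adjusted p = 4.97e-22). They kept 9.09% and 12.6% of the D0 level.

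Atm was at 61.6, 64.6 and 62.7 CPM at D0 and 38.5, 39.4 and 35.8 CPM at D5 (log2 fold change −0.73 ± 0.04, adjusted p = 1.17e-15). Atr was at 59.9, 59.7 and 59.9 CPM at D0 and 33.8, 35.5 and 33.0 CPM at D5 (−0.81 ± 0.04, adjusted p = 5.66e-17). The sensors thus kept 60.2% and 57.0%. In TPM, Atr was 0.456 ± 0.0203 times Chek1 at D0 and 2.89 ± 0.480 times at D5, and Atm went from 1.12 ± 0.0501 to 5.40 ± 0.687 times Chek2. The ratio of Atm to Atr was 2.41 ± 0.0640 and 2.54 ± 0.0644. These ratios rest on merged exon lengths, 23629 bases for Atr, 10338 for Atm and 4635 for Chek1, whereas their change between days does not. In CPM, without division by length, Atr was above Chek1 on both days (59.8 and 25.8 at D0, 34.1 and 2.34 at D5). Atm and Atr were near each other in CPM (63.0 and 59.8 at D0, 37.9 and 34.1 at D5).

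Ratios between partners and paralogs were compared in 16 pairs. In 14 the groups did not overlap, with exact two-sided permutation p = 0.1 (0.114 after Benjamini-Hochberg adjustment over the pairs), the smallest that 3 against 3 libraries allow, so no pair could pass 0.05. Neil3 to Neil1 changed most, by −4.79 on the log2 scale, followed by Lig1 to Lig3 (−3.46). Brca1 to Brca2 went from 2.25 ± 0.0922 to 0.828 ± 0.0718 and Rad54l to Rad54b from 1.87 ± 0.0815 to 0.409 ± 0.0714, so in both pairs the gene with the lower level at D0 had the higher level at D5. Of the Rad54b exon bases, 35.8% are shared with Fsbp on the same strand, which fell from 1.76 to 0.376 CPM, and 15.4% of those of Rad54l overlap Lrrc41, which was at 85.3 and 75.6 CPM.

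**Figure D4:**
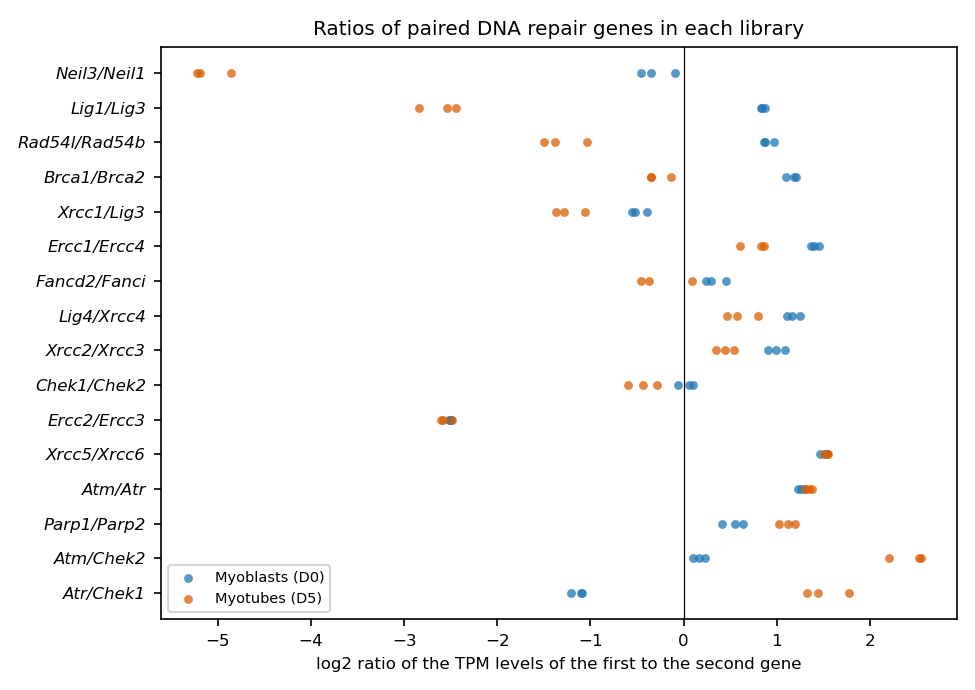
log2 ratio of the TPM levels of paired repair genes in each library, blue for myoblasts (D0) and orange for myotubes (D5). The points overlap for Xrcc5 to Xrcc6 and Ercc2 to Ercc3, and lie farthest apart for Neil3 to Neil1 (0.817 at D0 and 0.0295 at D5) and Lig1 to Lig3 (1.81 and 0.165).

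The order of the 41 genes by level changed accordingly. Apex1, Xrcc5 and Ercc3 were ranked 1, 2 and 3 on both days. Lig1 dropped from rank 4 to 23 and Brca1 from 12 to 32, while Xpc moved from rank 32 to 14, Ercc5 from 21 to 9 and Xrcc4 from 38 to 21. Neighbours in this order were often not separated, for example Xrcc2 (9.77 ± 0.778 TPM) and Fanca (9.08 ± 0.641 TPM) at D0 or Brca2 (1.60 ± 0.159 TPM) and Chek1 (1.57 ± 0.204 TPM) at D5.

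Another 73 repair genes that were not among the 41 were counted for comparison, and 72 were tested. Of these 51 (70.8%) were lower, against 40.8% of all genes tested, and 13 were higher, against 42.2%. Their median log2 fold change was −0.63. In homologous recombination and the Fanconi pathway 22 of 23 were lower, led by the endonuclease genes Eme1 (−4.64 ± 0.16) and Gen1 (−4.50 ± 0.09), while Rad52 was higher (0.44 ± 0.06, adjusted p = 2.33e-07). Among 16 other damage signalling genes 13 were lower, led by Clspn, the mediator between ATR and CHK1 (−4.75 ± 0.07), and the histone gene H2afx (−3.80 ± 0.05), and Trp53bp1, which favours end joining, was higher (0.54 ± 0.04, adjusted p = 1.22e-14). In base excision 6 of 12 were lower (50%, nearer to the share over all genes tested), and 4 were higher. The lower ones included the replication factors Fen1 (−2.40) and Pcna (−1.87). The rises were led by the glycosylase genes Mpg (0.43) and Nthl1 (0.22, adjusted p = 0.0403). Exon bases that overlap other genes on the opposite strand were 84.2% in Fen1 and 35.7% in Mpg, so their reads may be mixed.

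Of the 13 other nucleotide excision genes 6 were lower (46.2%) and 5 higher. Over all genes tested the shares were similar, 40.8% lower and 42.2% higher. Cetn2, which encodes a partner of XPC, had the largest rise (1.13 ± 0.05), and Ercc6 (−0.61) and Rad23b (−0.49) the largest decreases. Of 5 other end joining genes 2 were lower (40%), Tdp2 (−1.45) and Dclre1c (−0.27), and Poll was higher (0.25). Of 3 other mismatch genes Pms1 (−0.63) and Msh3 (−0.53) were lower and Mlh3 was higher (1.10 ± 0.11, adjusted p = 1.17e-10). With ERCC scaling none of the 13 rises passed the threshold, while 11.1% of all genes tested were higher.

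Of 12 p53 target genes 9 were higher in myotubes, against 42.2% of all genes tested, and 3 lower, against 40.8%. Cdkn1a, the cyclin-dependent kinase inhibitor p21, rose from 107 ± 3.29 to 2006 ± 54.3 CPM (log2 fold change 4.22 ± 0.04, adjusted p = 7.9e-37) and Gadd45a from 53.8 ± 4.86 to 471 ± 20.005 CPM (3.13 ± 0.05, adjusted p = 1.7e-31). Sesn2 (−0.96) and Bax (−0.60) fell most. Cdkn1a is also known to be induced when muscle cells differentiate, and DNA damage itself was not measured here. With ERCC scaling 2 of the 12 were higher, against 11.1% of all genes tested, and 1 was lower, against 23.0%.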

How the data were processed

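Total RNA of C2C12 cells was sequenced in 3 D0 and 3 D5 libraries. The authors deposited whole-number counts per gene from featureCounts on mm10. The labels name Tophat2 2.0.0 and NGS-QC-Toolkit 2.3.3 while the study's methods name another aligner and quality tool, and this was not resolved. Strand and annotation release are not given in the sources used here. The unnamed row of each table equals its column total and was left out, and 92 ERCC rows were kept apart. Groups came from the sample titles.

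Counts were tested in R 4.3.3 with edgeR 4.0.16 (filterByExpr, TMM factors, glmQLFit, glmQLFTest), D5 against D0 without covariates, with Benjamini-Hochberg adjustment over 16290 genes, a threshold of 0.05 and 95% intervals. CPM uses the TMM library sizes. TPM uses exon lengths of GENCODE M21 (GRCm38), merged over all annotated exons of a gene and matched for 99.9% of 54525 rows. Scripts were tested on simulated counts in which few genes changed, as many up as down. This cannot check the TMM scaling for data such as these, where most genes tested passed the threshold. Paired samples are described with the closing limits. Replicates differed by 2.28 to 3.71 times the counting variance (chi-square per degree of freedom), more than counting error gives. This cannot show whether they came from separate cultures, and each was counted as a separate sample. Nothing says that the 3 libraries of a group came from independent experiments, so p-values measure the spread between these libraries. Alternatives were DESeq2 1.42.0, library totals, ERCC scaling, other count filters (none, or 10 counts in every library), a replicate block and leaving out each library. All 41 genes are named, and of each other list the 2 largest rises and decreases with at least 100 mean counts in a group. A gene that this rule names is not reported here. The rule for the 41 genes names functions and uses no measured value, but the genes and lists were chosen with earlier results of these data known.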

Additional observations from a re-analysis of the deposited data

How the results depend on the processing

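The count of 30 lower genes was 30 with DESeq2, 31 with library totals, 30 without a filter, 29 of 40 tested with at least 10 counts in every library, and 30 without each library in turn. Higher genes numbered 5 to 7 in these settings. ERCC scaling moved the counts: 5560 genes passed the threshold and 3747 were lower over all genes, and of the 41 repair genes 0 were higher and 0 lay above without overlap. Base excision then had 4 lower genes, nucleotide excision 0 and end joining 0. Of the other repair genes 0 were higher, and of the 12 p53 targets 1 was lower and 2 were higher. On this scale 23.0% of all genes tested were lower and 11.1% higher. The cause was not tested.

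Summed levels per exon length on other scales were added after seeing the data. With TMM scaling the share of the D0 mean was 10.1% for homologous recombination and Fanconi genes, 34.1% for mismatch, 78.2% for base excision, 96.3% for nucleotide excision, 96.3% for end joining, 32.1% for the kinases and 68.0% for all 41. With ERCC scaling these shares were 6.92%, 23.1%, 53.5%, 65.4%, 65.4%, 21.8% and 46.4%. Without any 1 library each TPM share moved by less than its SD over libraries.

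The log2 fold changes of some genes changed sign. With ERCC scaling they were −0.31 for Neil1, −0.50 for Apex1, −0.54 for Polb, −0.40 for Lig3, −0.058 for Xpa, −0.085 for Ercc5, −0.25 for Prkdc and −0.56 for Lig4. With library totals they were −0.051 for Apex1, −0.062 for Polb and −0.084 for Lig4, and without a filter −0.020, −0.030 and −0.052. Lig4 was at −0.00088 with DESeq2. Leaving out 1 library gave −0.023 to 0.070 for Apex1 and −0.032 to 0.014 for Lig4.

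With the replicate number as a block, 30 genes were lower and 7 higher, and no call of the 41 changed. Same-numbered libraries deviated together with correlations of 0.02, 0.12 and 0.06, so the numbers were not taken to pair cultures, although each library correlated best with its own number, a hint from the data and not from the design. At 9 to 31 counts, the D5 values of the most reduced genes are limited by depth.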
